A study of Macaca mulatta with 29 samples.

Results

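The genes described here encode 10 subunits of the Polycomb repressive complexes: EZH2, EED, SUZ12, RBBP4, JARID2, MTF2 and PHF19 of PRC2, and RNF2, RING1 and BMI1 of PRC1. They were taken by symbol from the table of FPKM values (fragments scaled by gene length and library size), in which all 10 had a row, of 16048 gene rows in all. Rows carry the symbol and identifier of the human counterpart of each macaque gene. All 10 passed the filter on low values (1 FPKM or more on average), as did 11080 genes in total.

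The 29 libraries came from ORMES-6, 1 line of embryonic stem cells of the rhesus macaque, grown on mitotically inactivated mouse embryonic fibroblasts at 5% O2 and 5% CO2. Colonies were kept for 4 weeks with methanol, the vehicle in which every compound was also dissolved (5 libraries), or with atrazine, a herbicide, at 30 uM (5 libraries), bisphenol A, a plastics monomer, at 10 nM (5 libraries), bis(2-ethylhexyl) phthalate (DEHP), a plasticizer, at 5 uM (4 libraries), the fluorinated surfactant perfluorooctanoic acid (PFOA) at 100 nM (5 libraries), or tributyltin chloride, an organotin biocide, at 25 nM (5 libraries). Each treatment had 1 plate of 6 wells, so a compound's effect and that of its plate cannot be told apart. Nothing in the labels says that libraries of a group are separate cultures beyond the wells of a plate, so the p-values measure only the spread between these libraries. These are bulk libraries, in which fewer cells of a type and less RNA per cell cannot be told apart.

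PRC2 methylates a lysine in the tail of histone H3, and PRC1 attaches ubiquitin to a lysine of histone H2A. Both marks are linked to the silencing of genes. In embryonic stem cells the complexes sit on the promoters of developmental regulators, which are kept low but ready for use, and mouse embryonic stem cells that lack PRC2 can still self-renew but differentiate poorly.

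Markers of the labelled cell type were high in every library, apart from ZFP42, which averaged 6.79 FPKM over the 29 libraries. The 10 embryonic stem cell markers found in the table, among them POU5F1, NANOG and SOX2, summed to 2410 to 2999 FPKM per library. Of the 17 fibroblast and feeder markers found, 12 passed the filter, and the list summed to 475 to 647 FPKM. DCN was listed at 0 in all 29 libraries and COL1A1 averaged 50.0 FPKM. The list summed to 520 to 609 FPKM in vehicle, which overlapped with every other group. Depth relative to the deepest library, read from the steps in low FPKM values, was 14.2 to 27.2% with bisphenol A and 41.2 to 100% in the other groups.

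In vehicle the level of JARID2 was the highest of the 10 and that of BMI1 the lowest. JARID2, which helps to bring PRC2 to chromatin, had 121 ± 8.15 FPKM (SD, n = 5), above 96.2% of all gene rows or equal to them. EZH2, the methyltransferase, followed with 49.9 ± 6.84 FPKM, MTF2, a Polycomb-like protein that tethers PRC2 to CpG islands, with 39.2 ± 4.24 FPKM, and RBBP4, a histone-binding WD-repeat protein, with 28.4 ± 1.12 FPKM. SUZ12, the scaffold of PRC2, had 25.1 ± 3.41 FPKM, EED, which binds the methyl mark, 23.2 ± 3.04 FPKM, and RNF2, the main ubiquitin ligase of PRC1, 22.8 ± 1.08 FPKM. RING1, the paralog of RNF2, had 15.0 ± 2.61 FPKM. PHF19, another Polycomb-like protein, had 2.60 ± 0.280 FPKM and BMI1, a PCGF partner of the ligases, 1.63 ± 0.450 FPKM.

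The order was nearly fixed. JARID2 was above EZH2 in 29 of 29 libraries, and EZH2 above MTF2 in 28 of 29, although the vehicle ranges of EZH2 and MTF2 overlapped. RBBP4, SUZ12, EED and RNF2 formed a run in which each vehicle range overlapped the next, with SUZ12 above EED in 21 and EED above RNF2 in 20 of 29 libraries. The other neighbours, such as RNF2 and RING1 or PHF19 and BMI1, did not overlap in vehicle. Of the 10 genes, 8 kept their rank in all 6 groups, and SUZ12 and EED kept theirs in 5 of 6.

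**Figure D1:**
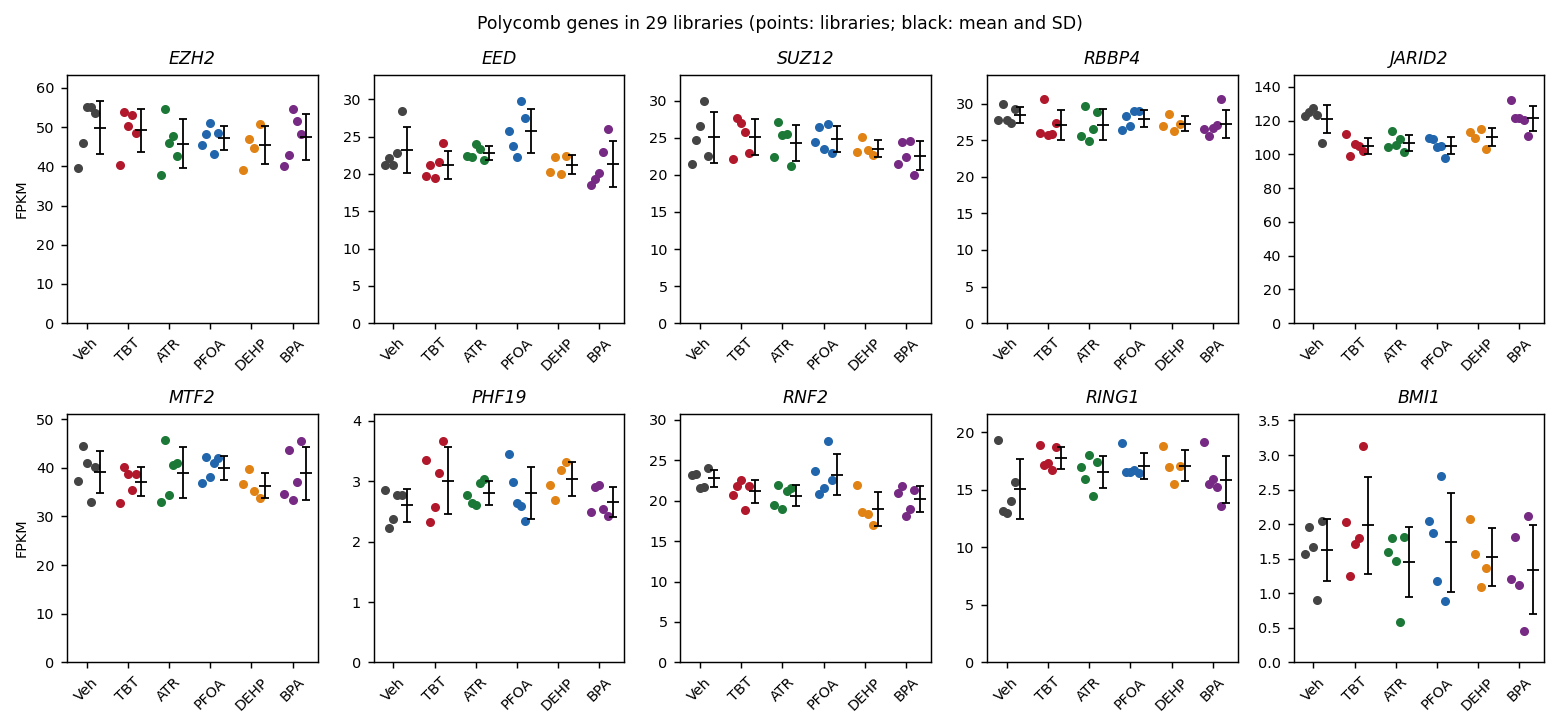
FPKM (linear axes from 0) of each Polycomb gene in each library (points), with the group mean and SD in black, for vehicle (Veh), tributyltin (TBT), atrazine (ATR), PFOA, DEHP and bisphenol A (BPA). The groups overlap for most genes, and 4 of the 5 vehicle libraries sit above every tributyltin, atrazine, PFOA and DEHP library for JARID2.

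Paralogous subunits differed in level per length. The ratio of EZH2 to EZH1, the alternative methyltransferase, averaged 10.4 ± 2.07 (SD over 29 libraries), and that of MTF2 to PHF19 averaged 14.0 ± 2.70. RNF2 and RING1 were close, at a ratio of 1.30 ± 0.202. RBBP7, the close paralog of RBBP4, was the higher of the pair, and the ratio of RBBP4 to RBBP7 was 0.499 ± 0.0777. Reads shared by these 2 similar genes may have been divided between them, so both values are uncertain. Within the PRC2 core, EZH2 averaged 2.12 ± 0.305 times EED and 1.97 ± 0.214 times SUZ12.

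Of the PCGF genes, whose products define the kinds of PRC1, PCGF2 averaged 36.4 FPKM over the 29 libraries, PCGF6 25.0, PCGF3 15.0 and PCGF1 7.54, against 1.61 FPKM for BMI1 (PCGF4). Among the CBX genes, which read the PRC2 mark, CBX2 averaged 11.5 FPKM, CBX6 2.28, CBX7 2.09 and CBX8 0.325. PHC1, a polyhomeotic scaffold, averaged 127 FPKM, higher than any of the 10 members, while PHC2 and PHC3 averaged 1.74 and 8.86 FPKM. The PRC2 accessory gene PHF1 averaged 16.5 FPKM and LCOR 7.13.

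**Figure D2:**
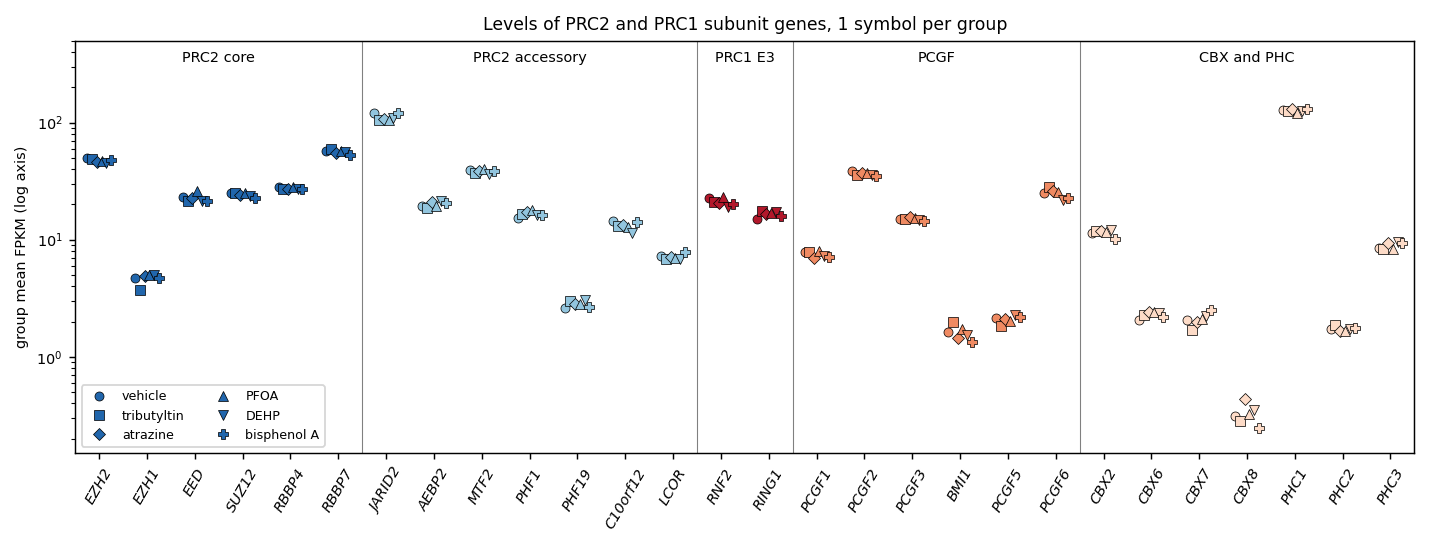
Group mean FPKM (log axis) of PRC2 and PRC1 subunit genes, with 1 symbol per group of libraries and genes ordered by role. JARID2 and PHC1 stand highest, and BMI1 and PCGF5 are far below PCGF2 and PCGF6. The 6 groups lie close together for each gene.

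Developmental genes that are known Polycomb targets in embryonic stem cells were mostly near 0. Of 58 such genes on the list, 52 had a row, and 45 of the 52 averaged under 1 FPKM in vehicle. CDX2, NKX2-2 and WNT6 were listed at 0 in every library, and HAND1, OLIG2 and HOXA5 did not exceed 0.0928 FPKM in any. The 7 that passed the filter were SOX9, WNT5A, EOMES, IRX3, GATA3, TBX5 and IRX5, with means of 1.63 to 6.56 FPKM.

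No member passed the limma threshold (adjusted p of 0.05 over all genes tested) against vehicle with any compound. The count was 0 of 10 with tributyltin, where 1.25% of all genes tested were called, 0 of 10 with atrazine (0.19% called), 0 of 10 with PFOA (0.162% called), 0 of 10 with DEHP (0.00903% called) and 0 of 10 with bisphenol A (0% called, 573 genes at an unadjusted p under 0.05). At these backgrounds 0 calls among 10 genes does not set the members apart. At an unadjusted p under 0.05 there were 2 of 10 members with tributyltin and 1 of 10 with each other compound. The share of all genes tested at that level was 10.5% with tributyltin, 6.88% with atrazine, 5.79% with PFOA, 7.93% with DEHP and 5.17% with bisphenol A, so these counts do not set the members apart either. The mean of the 5 compounds against vehicle gave 0 of 10 calls (0.253% called), with 3 members and 7.20% of all genes at an unadjusted p under 0.05, and the F test of any difference among the 6 groups gave 0 of 10 (1.25% called), with 3 members and 10.99% of all genes at that level.

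What the data do give is an interval for each difference between these libraries, which is not a bound on a compound's effect apart from its plate. Several fold changes were so near 0 that 61 values under other settings, for 18 of the comparisons, had the other sign, with a smallest adjusted p = 0.908. The 95% intervals of the log2 fold changes, unadjusted for the number of tests, ran from -0.42 to 0.42 at their widest over 9 members, leaving out BMI1. The fold changes are differences of log2(FPKM + 1), which understate the change of low genes such as PHF19. Intervals for RBBP4 stayed between -0.20 and 0.10 over the 5 compounds, those of JARID2 between -0.33 and 0.13, and those of EZH2 between -0.36 and 0.20. BMI1 was the least certain, with bounds of -0.61 and 0.59. The median fold change of the members was -0.04 with tributyltin, -0.05 with atrazine, 0.03 with PFOA, -0.09 with DEHP and -0.06 with bisphenol A, against medians of all tested genes between -0.017 and -0.0046 on the same log2 scale. These 5 comparisons share the vehicle libraries.

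**Figure D3:**
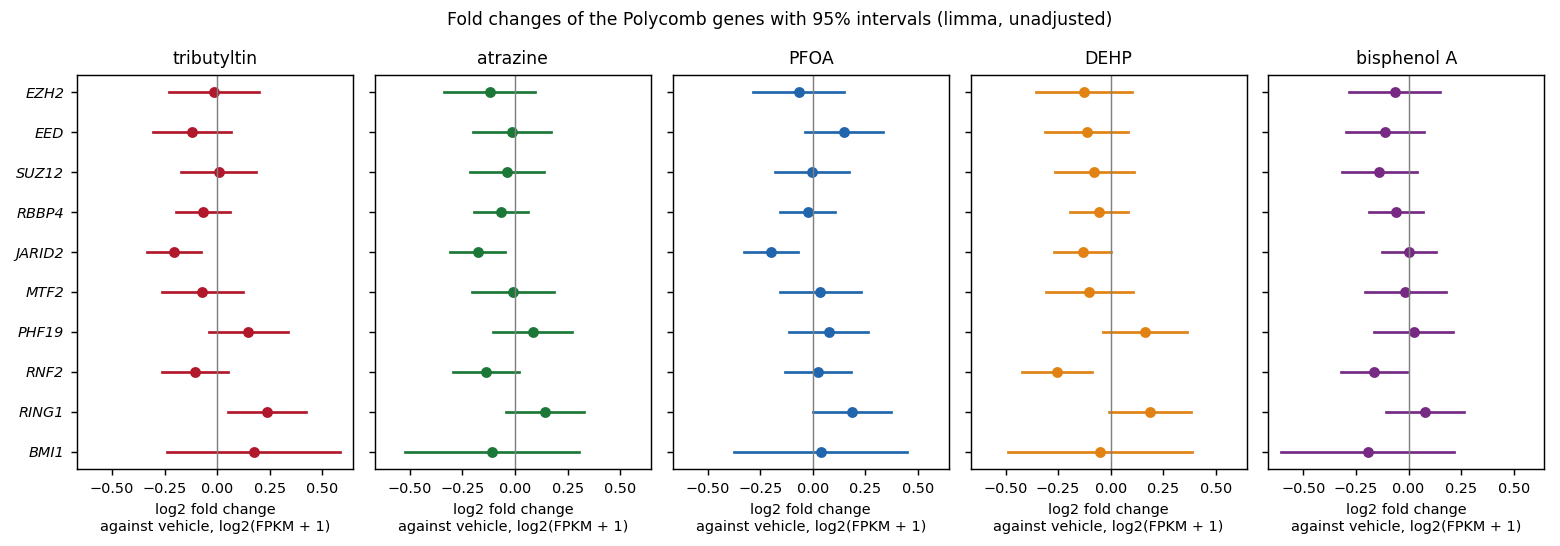
Log2 fold changes against vehicle (points, difference of log2(FPKM + 1)) with unadjusted 95% limma intervals (lines) for the 10 genes, 1 panel per compound. The points of JARID2 lie below 0 with tributyltin, atrazine, PFOA and DEHP and at 0.00 with bisphenol A, and its interval with DEHP includes 0. Points of RING1 and PHF19 lie above 0 in all panels, and those of EZH2 and RBBP4 below. The RING1 interval excludes 0 only with tributyltin. All panels share the vehicle libraries, and BMI1 has the widest intervals.

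Of the PRC2 core, EZH2 had 39.7, 46.0, 55.1, 55.2 and 53.5 FPKM in the vehicle libraries 1 to 5 and 40.3, 53.9, 50.2, 53.1 and 48.5 FPKM with tributyltin. The ranges overlapped, and library 1 was the lowest in both groups. Group means with the other compounds were 45.4 to 47.5 FPKM, and the fold change furthest from 0 was -0.13 with DEHP (interval -0.36 to 0.10, limma adjusted p = 0.818).

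EED had 21.2, 22.1, 21.2, 22.9 and 28.5 FPKM in vehicle. With PFOA it had 25.7, 23.8, 22.3, 29.7 and 27.5 FPKM, the highest group mean, 25.8 ± 2.93 FPKM (SD, n = 5). The ranges overlapped, and the log2 fold change was 0.15 (interval -0.04 to 0.33, limma adjusted p = 0.981). With tributyltin, DEHP and bisphenol A the group means of EED were 21.2 to 21.4 FPKM. SUZ12 averaged 22.6 to 25.1 FPKM in the 6 groups and was lowest with bisphenol A, at a log2 fold change of -0.14 (limma adjusted p = 0.967), while RBBP4 averaged 27.1 to 28.4 FPKM.

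JARID2 was the member with the smallest p in the F test (limma adjusted p = 0.12). It had 123, 125, 127, 123 and 107 FPKM in vehicle, 112, 98.9, 106, 105 and 102 FPKM with tributyltin, 104, 114, 106, 109 and 101 FPKM with atrazine, and 110.0, 109, 104, 105 and 97.9 FPKM with PFOA. DEHP gave 113, 109.8, 115 and 103 FPKM, and bisphenol A 132, 122, 122, 120.2 and 111 FPKM. Thus 4 of 5 vehicle libraries, at 123 FPKM or more, lay above all 19 libraries of the first 4 compounds, whose highest value was 115 FPKM, and vehicle library 5 lay among them. In the bisphenol A group 4 of 5 libraries were above that value.

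The log2 fold change of JARID2 was -0.20 with tributyltin (interval -0.33 to -0.08, unadjusted p = 0.00296, limma adjusted p = 0.13), and 5 of 5 libraries were below the vehicle mean. It was -0.20 with PFOA (limma adjusted p = 0.393), -0.18 with atrazine (limma adjusted p = 0.475), -0.13 with DEHP (limma adjusted p = 0.64) and 0.00 with bisphenol A (limma adjusted p = 0.998). For tributyltin and vehicle the replicate numbers behaved as pairs, and with the number as a block in the fit over all groups JARID2 passed (adjusted p = 0.0155), whereas a block in these 2 groups alone gave an adjusted p = 0.133. Library weights gave an adjusted p = 0.032, and without vehicle replicate 5 the fold change with tributyltin was -0.25 (adjusted p = 0.0424). JARID2 was below its group mean in library 5 of all 5 groups that have one. With every library numbered 5 left out it was not called. Values of the stem cell markers stood below vehicle in 7, 7, 8, 8 and 7 of 10 genes with tributyltin, atrazine, PFOA, DEHP and bisphenol A, with median log2 fold changes of -0.04, -0.11, -0.12, -0.08 and -0.05 and 0 calls. Of the 12 feeder markers tested, 6, 7, 4, 6 and 11 stood above vehicle, with medians of -0.01, 0.11, -0.09, -0.0029 and 0.10 and 0 calls. The part of these cells in the JARID2 values was not tested. The spread of JARID2 between libraries of a group was small, with a pooled SD of 0.077 log2 units against a median of 0.178 over the genes tested, and 0.641% of these genes had a spread as small or smaller.

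Tributyltin and bisphenol A had the lowest and highest group means of JARID2, a pair chosen after its values were seen. The log2 difference was -0.21 (interval -0.34 to -0.08, limma adjusted p = 0.0714, with 2.5% of all genes called in this comparison), and the ranges overlapped. The difference from bisphenol A was not particular to tributyltin. PFOA differed from bisphenol A by -0.20 (limma adjusted p = 0.173), without overlap, and atrazine by -0.18 (limma adjusted p = 0.396), with overlap. The bisphenol A libraries were the shallowest, and the part of depth in these differences was not tested.

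The Polycomb-like genes MTF2 and PHF19 showed no called difference. MTF2 averaged 36.3 to 40.0 FPKM in the 6 groups, with fold changes from -0.10 to 0.04. PHF19 had 2.85, 2.23, 2.37, 2.78 and 2.77 FPKM in vehicle and 2.94, 2.69, 3.20 and 3.32 FPKM with DEHP, which overlapped. Its fold changes were 0.02 to 0.16 with the 5 compounds (smallest limma adjusted p = 0.632), and that with bisphenol A turned sign when 1 library was left out.

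The genes of the PRC1 ligases gave the 2 fold changes furthest from 0 among the members, in opposite directions, and neither passed the test. RNF2 had 23.1, 23.3, 21.6, 21.7 and 24.1 FPKM in vehicle and 21.9, 18.6, 18.3 and 17.01 FPKM with DEHP, where 3 of 4 libraries were below all of vehicle. Its log2 fold change with DEHP was -0.26 (interval -0.42 to -0.09, unadjusted p = 0.00376, limma adjusted p = 0.42), and with bisphenol A it was -0.16 (limma adjusted p = 0.933). With PFOA it had 23.7, 20.9, 21.6, 27.4 and 22.5 FPKM, which overlapped with vehicle. PFOA and DEHP had the highest and lowest group means of RNF2, a pair chosen after its values were seen. They differed by 0.28 (interval 0.11 to 0.44, unadjusted p = 0.00187, limma adjusted p = 0.999, with 0% of all genes called in this comparison).

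RING1 had 19.3, 13.2, 13.0, 14.0 and 15.7 FPKM in vehicle and 18.9, 17.1, 17.4, 16.7 and 18.7 FPKM with tributyltin. Vehicle library 1 was above all tributyltin libraries and the other 4 were below them all. The log2 fold change was 0.24 (interval 0.05 to 0.42, unadjusted p = 0.0135, limma adjusted p = 0.285), and without vehicle replicate 1 it was 0.33 (adjusted p = 0.0449). RING1 was above its group mean in library 1 of all 6 groups, and with every library numbered 1 left out it was not called. Means with the other compounds were 15.9 to 17.1 FPKM against 15.0 FPKM in vehicle. The ratio of RNF2 to RING1 within a library, which does not depend on library scaling, was 1.54 ± 0.214 in vehicle, 1.19 ± 0.0895 with tributyltin, 1.26 ± 0.167 with atrazine, 1.36 ± 0.163 with PFOA, 1.11 ± 0.0842 with DEHP and 1.29 ± 0.198 with bisphenol A (SD). It is given as a description, and its ranges in vehicle (1.20 to 1.77) and DEHP (1.00 to 1.18) did not overlap. These were the groups with the highest and lowest mean ratio, picked after the values were seen.

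BMI1 had 1.56, 1.96, 1.67, 0.905 and 2.04 FPKM in vehicle and 2.02, 1.25, 1.71, 1.81 and 3.14 FPKM with tributyltin. Its values ranged from 0.461 to 3.14 FPKM over all libraries, and 94.4% of tested genes had a pooled SD within groups as small or smaller. The table holds a separate row for COMMD3-BMI1, a transcript that reads through from the neighbouring gene COMMD3 and shares the BMI1 exons. That row was under 0.01 FPKM in 10 of 29 libraries and above the BMI1 row in 6, up to 2.62 FPKM. Across the 29 libraries the log2 values of the 2 rows had a Pearson r of -0.74, a description over libraries that share line and processing. The sum of both rows varied less than BMI1 alone, with a coefficient of variation of 23.2% against 35.8%. It averaged 1.91 ± 0.218 FPKM in vehicle, 2.37 ± 0.585 with tributyltin and 2.52 ± 0.791 with bisphenol A (SD, n = 5 each). The BMI1 row on its own is therefore an uncertain measure of BMI1.

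**Figure D4:**
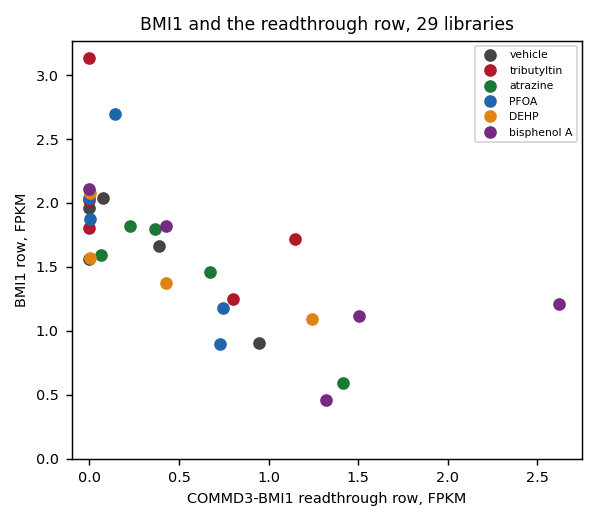
FPKM of the BMI1 row against the FPKM of the COMMD3-BMI1 readthrough row (linear axes), with 1 point per library colored by group. BMI1 is low where the readthrough row is high, with r = -0.74 over 29 libraries on the log2 scale.

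Among the other PRC1 genes 24 of 27 listed had a row and 23 passed the filter, and limma called 0 in each direction with every compound. Unadjusted, 1 was lower with tributyltin, 3 each with atrazine, PFOA and DEHP, and 0 with bisphenol A, and 0 were higher. With tributyltin 1 of 23 is below the 10.5% of all genes, and 3 of 23 compare with 6.88%, 5.79% and 7.93% of all genes with the other 3 compounds. KDM2B, which brings a variant PRC1 to unmethylated CpG islands, had the smallest p with tributyltin, atrazine and PFOA. Its vehicle libraries had 18.8, 22.4, 21.6, 18.8 and 21.9 FPKM, those of atrazine 15.2, 15.3, 16.7, 15.1 and 17.8 FPKM and those of PFOA 14.3, 15.7, 16.8, 16.7 and 17.1 FPKM. Neither compound overlapped with vehicle, nor did DEHP (16.7 to 18.2 FPKM), while tributyltin (14.9 to 20.1 FPKM) and bisphenol A (16.1 to 22.5 FPKM) did. KDM2B was named for its small p, and these comparisons share the vehicle libraries. The share of all genes without overlap was not computed.

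The log2 fold change of KDM2B was -0.35 with atrazine (SE 0.08, limma adjusted p = 0.0824), -0.34 with PFOA (limma adjusted p = 0.107), -0.30 with tributyltin (limma adjusted p = 0.0646), -0.23 with DEHP (limma adjusted p = 0.516) and -0.11 with bisphenol A (limma adjusted p = 0.967). Blocking on the replicate number in all groups gave an adjusted p = 0.0133 with tributyltin, and blocking in these 2 groups alone gave an adjusted p = 0.0652. Library weights, which use no pairing, called KDM2B with tributyltin (adjusted p = 0.00922), atrazine (adjusted p = 0.0162) and PFOA (adjusted p = 0.0108), while fits of only the groups compared gave adjusted p-values of 0.328, 0.357 and 0.284. For the mean of the 5 compounds the log2 fold change of KDM2B was -0.27 (limma adjusted p = 0.0866), with 23 of 24 libraries below the vehicle mean, and 4 of 36 alternatives called it (adjusted p = 0.0173 to 0.459). With tributyltin its adjusted p was 0.0144 without tributyltin replicate 5 and 0.0489 without vehicle replicate 1. BCOR, a partner in the same variant PRC1, had 28.5 ± 1.96 FPKM in vehicle and 23.4 ± 2.08 FPKM with DEHP (log2 fold change -0.27, limma adjusted p = 0.306, and 0.0322 with library weights). Of the 24 treated libraries, 24 were below the vehicle mean of BCOR, and the mean of the 5 compounds differed from vehicle by -0.18 (limma adjusted p = 0.293). The counts of 24 libraries for KDM2B and BCOR are set against the mean of the same 5 vehicle libraries. They are therefore not 24 separate observations, and no share over all genes was computed. CBX7 had a log2 fold change of -0.18 with tributyltin and 0.18 with bisphenol A, and PCGF6 had -0.15 with bisphenol A (smallest limma adjusted p of the 3 values = 0.583).

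Of the other PRC2 genes 6 of 9 listed had a row, all 6 passed the filter and 0 were called with any compound (unadjusted, 1 was lower with tributyltin and 1 with DEHP, against 10.5% and 7.93% of all genes). EZH1 had 4.73 ± 0.516 FPKM in vehicle and 3.73 ± 0.523 FPKM with tributyltin (SD, n = 5 each; log2 fold change -0.28, limma adjusted p = 0.19). C10orf12, also on this list, had 14.3 ± 2.35 FPKM in vehicle and 11.5 ± 1.18 FPKM with DEHP (log2 fold change -0.29, limma adjusted p = 0.516). For PHF1, AEBP2 and LCOR, each gene's own fold change furthest from 0 was smaller. It was 0.23 for PHF1 with PFOA (limma adjusted p = 0.964), 0.12 for AEBP2 with DEHP (limma adjusted p = 0.813) and 0.10 for LCOR with bisphenol A (limma adjusted p = 0.97).

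Enzymes that remove or oppose Polycomb marks gave 0 calls among 9 tested genes with each compound, with 1, 1, 1, 2 and 1 at an unadjusted p under 0.05 for tributyltin, atrazine, PFOA, DEHP and bisphenol A. The shares over all genes were, in the same order, 10.5%, 6.88%, 5.79%, 7.93% and 5.17%. A count of 1 of 9 is the smallest above 0, and 2 of 9 with DEHP lies above its share, which was not tested. The H3 demethylase gene KDM6A had 30.0 ± 1.88 FPKM in vehicle and 34.8 ± 2.82 FPKM with bisphenol A (log2 fold change 0.21, limma adjusted p = 0.586). ASXL2, a cofactor of the H2A deubiquitinase BAP1, had 29.2 ± 3.39 FPKM in vehicle and 23.5 ± 2.08 FPKM with DEHP (log2 fold change -0.30, limma adjusted p = 0.306). With library weights ASXL2 was called with DEHP (adjusted p = 0.0303) and with tributyltin (adjusted p = 0.0473). The methyltransferase gene NSD1 had -0.24 with DEHP (limma adjusted p = 0.496), the demethylase gene KDM6B -0.22 with tributyltin (limma adjusted p = 0.601) and ASXL1 -0.20 with atrazine (limma adjusted p = 0.674).

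The 7 target genes that passed the filter gave 0 calls with any compound, and 1 was at an unadjusted p under 0.05 with each of tributyltin, atrazine, PFOA and DEHP, against 10.5%, 6.88%, 5.79% and 7.93% of all genes. SOX9, a regulator of neural crest and cartilage, had 7.46, 8.58, 7.38, 6.98 and 6.36 FPKM in vehicle and 5.23, 5.40, 6.01, 5.02 and 3.66 FPKM with tributyltin, without overlap. It was named for its small p, and the share of all genes without overlap was not computed. The log2 fold change was -0.47 (SE 0.13, limma adjusted p = 0.0612). With the replicate block over all groups it passed (adjusted p = 0.0171), as it did with the block in these 2 groups alone (adjusted p = 0.01) and with library weights (adjusted p = 0.0192), and without tributyltin replicate 3 its adjusted p was 0.0377. EOMES, a mesendoderm regulator, had 6.55 ± 1.60 FPKM with atrazine and 4.46 ± 1.74 FPKM in vehicle (log2 fold change 0.51, limma adjusted p = 0.475). With DEHP the log2 fold change was 0.37 for IRX5 (limma adjusted p = 0.609) and 0.25 for IRX3 (limma adjusted p = 0.761), and WNT5A had 0.15 with bisphenol A (limma adjusted p = 0.963).

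Libraries of the same number deviated from their group means in the same direction for several members, a pattern chosen after the values were seen. The share of all genes with such a pattern was not computed, so it does not set the members apart. EZH2 was below its own group mean in library 1 of all 6 groups and lowest there in 5, by a mean of -0.22 log2 units, further from 0 than any of its 5 fold changes against vehicle. RING1 was above its group mean in library 1 of all 6 groups and highest there in 5, by 0.17, against a fold change of 0.24 with tributyltin. JARID2 was below its group mean in library 5 of all 5 groups that have one and lowest there in 4. The mean deviation was -0.10, against a fold change of -0.20 with tributyltin. SUZ12 was also below its mean in library 5 of these 5 groups, by -0.14, while EED was above it in 4 of 5, by 0.16. After median-of-ratios scaling the means for EZH2, RING1 and JARID2 were -0.22, 0.17 and -0.11. The labels do not say what a replicate number marks.

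**Figure D5:**
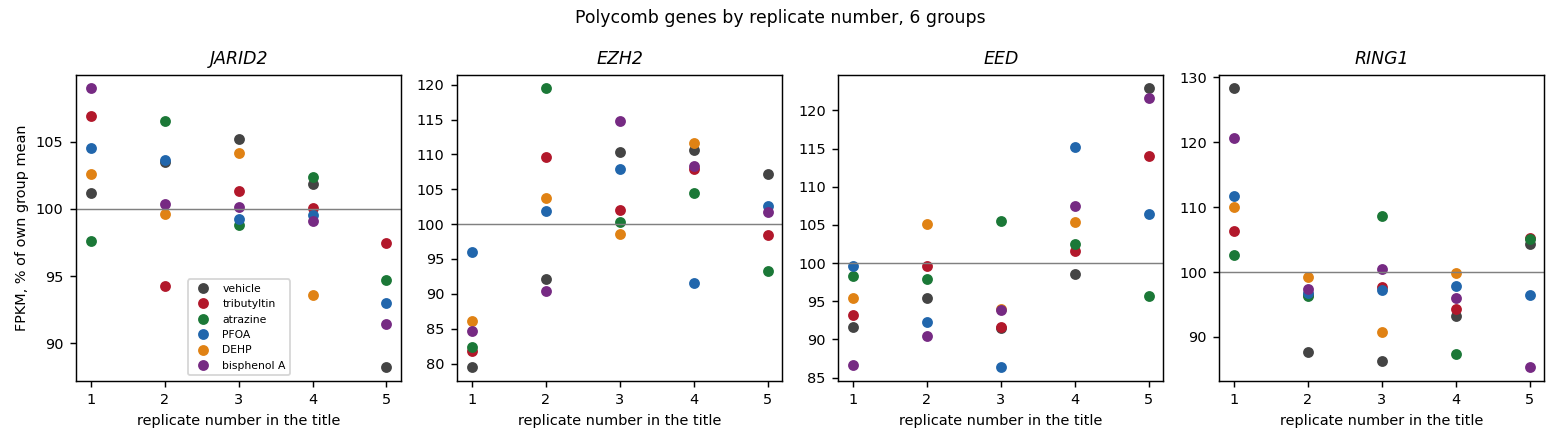
FPKM as a percentage of the mean of the library's own group, by the replicate number in the title, for JARID2, EZH2, EED and RING1, with 1 point per library colored by group. EZH2 is low and RING1 high at number 1, and JARID2 is low and EED mostly high at number 5, in nearly every group.

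The 10 genes did not vary as 1 unit. Of their 45 pairs, 22 had a positive Pearson r of log2 values over the 29 libraries, the median r was -0.0044 and the range -0.51 to 0.68, the highest being that of MTF2 and RBBP4. With deviations from the group means 22 pairs were positive again. The lowest r over the libraries was that of EZH2 and RING1, and JARID2 and EED had -0.46, and -0.68 with deviations from the group means. These correlations are descriptions, since the libraries share plates, depth and processing.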

How the data were processed

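RNA of 29 libraries from 6 groups was sequenced in 50-nt single-end reads from 100 ng of RNA. The authors deposited 1 table of FPKM values per gene, and per the submitters' processing notes they used TopHat2 2.1.1, SAMtools and Cuffdiff 2.2.1. The build used for the macaque reads, and how reads of the mouse feeder cells were treated, are not given in the sources used here. From the deposited FPKM values, log2(FPKM + 1) was computed, genes averaging 1 FPKM or more were kept, and limma 3.58.1 in R 4.3.3 was fitted with a mean-variance trend to all libraries at once, with Benjamini-Hochberg adjustment over 11080 genes and a threshold of 0.05. The fold changes understate the change of low genes. The fit was tested on simulated data.

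The members and the other gene lists were chosen with earlier results of these data known. Of each other list, the text names the 2 genes with the smallest p in a comparison where none was called, each with values for 1 or more comparisons picked after seeing the results. For each member it names the 2 genes of at least 5 FPKM with the highest correlation. Genes shown for their level alone, and the replicate number pattern, were chosen after their values were seen. Relative depth came from the steps in low values, of which 98.1% of 14638 were whole to within 0.1 of a step.

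Replicate numbers in the titles are shared between groups. Deviations from the group means correlated between same-numbered libraries of vehicle and tributyltin in every pair (r 0.18 to 0.65), so these were taken as paired from the data, not from the labels. The other compounds had at least 1 pair with r under 0.1. Alternatives were another pseudocount, no filter, median-of-ratios scaling, library weights, other sets of libraries, a replicate block and each library left out.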

Additional observations from a re-analysis of the deposited data

Results flagged for a closer look

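Of 60 checks of 10 genes in 6 groups for a library far from the others, 4 passed the limit, where about 1 in 20 is reached by chance. JARID2 was lowest in vehicle library 5, at 107 FPKM, while the nearest other vehicle library had 123 FPKM. EED was highest in the same library, at 28.5 FPKM, with the nearest at 22.9 FPKM. RBBP4 was highest in bisphenol A library 5, at 30.6 FPKM, with the nearest at 27.0 FPKM. RING1 was highest in PFOA library 1, at 19.1 FPKM, with the nearest at 16.7 FPKM. Each of the 4 values lies on the side on which its gene deviated on average in libraries of that number. That average includes the flagged library itself, so the shared side is partly built in and no conclusion is drawn from it.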

How the results depend on the processing

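With the replicate block in the fit over all groups, JARID2 was the 1 member called with tributyltin and the 1 member called in the F test. In these tests 420 and 543 of the 11080 genes were called, against 138 and 139 without the block. Library weights also gave 1 member called with tributyltin, JARID2, where 254 of all genes were called. Leaving out 1 library at a time gave 0 to 1 members called with tributyltin (RING1 without vehicle replicate 1, JARID2 without vehicle replicate 5) and 0 to 1 in the F test (without vehicle replicate 5). Over all genes these runs gave 71 to 156 calls with tributyltin and 88 to 182 in the F test. Neither RING1 nor JARID2 was called with tributyltin when every library of the same number was left out. With atrazine, PFOA, DEHP, bisphenol A and the mean of the compounds, 0 members were called under every alternative run. Of 2340 fold changes of members and other named genes under alternatives, 25 gained a call, and 61 of members in 18 comparisons changed sign, none of them called.

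The sign changes were all in values near 0. Leaving out 1 library at a time gave log2 fold changes with tributyltin of -0.093 to 0.054 for EZH2 and -0.045 to 0.071 for SUZ12. With atrazine they were -0.044 to 0.058 for EED, -0.070 to 0.045 for MTF2, -0.22 to 0.039 for BMI1 and -0.090 to 0.026 for SUZ12. With PFOA they were -0.057 to 0.060 for SUZ12, -0.037 to 0.057 for RNF2, -0.081 to 0.16 for BMI1 and -0.023 to 0.081 for MTF2, and with DEHP -0.16 to 0.035 for BMI1. With bisphenol A they were -0.041 to 0.035 for JARID2, -0.074 to 0.035 for MTF2 and -0.015 to 0.049 for PHF19. For the mean of the compounds they were -0.071 to 0.031 for EED, -0.14 to 0.029 for BMI1, -0.090 to 0.013 for MTF2 and -0.10 to 0.014 for SUZ12. Median-of-ratios scaling turned EZH2 with tributyltin (0.0070) and SUZ12 with PFOA (0.010). Library weights turned EZH2 with tributyltin (0.025), EED with atrazine (0.0039), RNF2 with PFOA (-0.0085) and JARID2 with bisphenol A (-0.020). Without libraries numbered 1 the turned values were -0.0037 (SUZ12, tributyltin), 0.029 (MTF2, atrazine), -0.015 (BMI1, PFOA), -0.023 (JARID2, bisphenol A) and 0.0071 (MTF2, bisphenol A). Without those numbered 5 they were 0.016 (EZH2, tributyltin), 0.073 (EED, atrazine), 0.0059 (BMI1, DEHP), -0.0091 (JARID2, bisphenol A) and 0.0060 (EED, mean).

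Counts over all genes moved more. The replicate block gave 420 calls with tributyltin (138 without it), 84 with atrazine (21), 63 with PFOA (18), 30 with DEHP (1), 3 with bisphenol A (0), 104 for the mean of the compounds (28) and 543 in the F test (139). With the block in vehicle and tributyltin alone there were 271. For each of the other 4 compounds at least 1 same-numbered pair had r under 0.1, so the numbers were not taken as pairs there. Other pairs did correlate, with r of -0.13 to 0.52 for atrazine and -0.17 to 0.45 for PFOA. The range was 0.00045 to 0.57 for DEHP and -0.25 to 0.37 for bisphenol A. KDM2B had a blocked adjusted p of 0.0133 with atrazine and 0.0157 with PFOA, and library weights, without pairing, called it there too. Library weights gave 254, 32, 54 and 74 calls with tributyltin, atrazine, PFOA and DEHP, 47 for the mean and 377 in the F test. A fit of only the groups compared gave 44, 6, 8 and 0 for the same 4 compounds. Without any library numbered 1 there were 83 calls with tributyltin, 0 with DEHP and 70 in the F test, and without any numbered 5 there were 88, 3 and 80. For DEHP the count was 0 with a pseudocount of 0.1, 4 without the filter and 3 without the bisphenol A libraries, and for bisphenol A it was 1 without the filter. Leaving out 1 library at a time gave 71 to 156 calls with tributyltin, 12 to 22 with atrazine, 7 to 24 with PFOA, 0 to 2 with DEHP, 0 to 1 with bisphenol A, 13 to 33 for the mean and 88 to 182 in the F test. The lowest counts for tributyltin, atrazine, PFOA and the mean came without vehicle replicate 2. The cause of these shifts was not tested. The alternatives without bisphenol A, without numbers 1 or 5 and with the block in 2 groups were chosen after seeing the data.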

Other observations

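For each member the genes with the most similar profile over the 29 libraries, among those of at least 5 FPKM, are given as a description, since all libraries share the line and the processing. JARID2 was most like LRRC58 (Pearson r = 0.88) and APAF1 (0.86), EZH2 like SMARCE1 and HSPA9 (0.88 each), EED like RNF121 (0.73) and NGDN (0.72), SUZ12 like CPSF6 (0.86) and TWISTNB (0.83), and RBBP4 like MINOS1 and UMPS (0.77 each). MTF2 was most like NARS (0.80) and METAP2 (0.77) and PHF19 like CTSA (0.72) and PCDH1 (0.70). Among the PRC1 members, RNF2 was most like CWC15 (0.84) and NOP58 (0.80), RING1 like MRPS11 (0.82) and TNPO2 (0.81), and BMI1 like CDCP1 and SAT1 (0.65 each). No Polycomb member was among these partners.

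Further members followed the replicate number. MTF2 was above its group mean in library 2 of all 6 groups and highest there in 5, by a mean of 0.15 log2 units. RBBP4 was highest in library 2 in 4 of 6 groups, and BMI1 was highest in library 5 in 4 of 5 groups, by a mean of 0.19.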
